A study of Homo sapiens with 24 samples.

Results

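Imprinted genes are genes of which 1 parental copy is silenced by marks set down in the egg or the sperm. A list of 36 such genes, grouped by locus, was followed through 24 libraries of a KDM2A knockdown series. All 36 were found among the 61544 identifiers of the organoid count table and 24 of them among the 10221 of the NPC count table. The 12 found in organoids only were H19, KCNQ1OT1, ASCL2, MEG3, MEG8, PEG3, ZIM2, MEST, BLCAP, L3MBTL1, DIRAS3 and TRAPPC9. The values are total RNA levels, so they carry no information on which parental copy a transcript came from.

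KDM2A is a demethylase of lysine 36 of histone H3 with a zinc finger domain that binds unmethylated CG dinucleotides. The study's title places it in neurodevelopment. H9, a human embryonic stem cell line, had been infected with lentivirus at a multiplicity of infection of 20, selected in puromycin at 1 µg/ml and taken into neural progenitor cells (NPCs) or into cerebral organoids collected at day 30. In each system there were libraries with the KDM2A hairpin sh1, with the KDM2A hairpin sh4 and with a scrambled hairpin (NC, labelled WT). There were 5 libraries a group in NPCs and 3 a group in organoids. All groups, the scrambled controls included, carry the virus and the selection, and all come from the single line H9. Whether replicates came from separate inductions is not stated, so the p-values measure the spread between these libraries, which may be technical.

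Most imprinted genes sit in clusters that share an imprinting control region, a stretch of DNA methylated on either the maternal or the paternal copy. Within a cluster, protein-coding genes and long noncoding RNAs are often expressed from opposite copies. Many of the genes regulate growth, several of them through insulin-like growth factor 2 (IGF2), and many are highly expressed in embryonic mesenchyme, placenta and developing brain.

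KDM2A itself had 92.1 ± 4.15 CPM (the usual count unit relative to the library's total, here the TMM-scaled one) in NPC sh1 libraries and 95.1 ± 4.21 CPM in NPC sh4 libraries, against 186 ± 15.3 CPM in NPC NC libraries (SD, n = 5 each). The log2 fold changes were -1.02 with sh1 (SE 0.055, adjusted p = 5.12e-12) and -0.97 with sh4 (SE 0.055, adjusted p = 7.36e-12) by the quasi-likelihood test of edgeR, with p-values adjusted by Benjamini and Hochberg's method as throughout. The sh4 value fell short of the fold threshold given below, and the sh1 value did so, at -0.99, without NC replicate 1 or without NC replicate 3. In organoids KDM2A had 110.4 ± 6.97 CPM in the libraries labelled sh1 and 101 ± 4.89 CPM in those labelled sh4, against 100.5 ± 4.00 CPM in NC organoids (SD, n = 3 each). Those log2 fold changes were 0.14 (adjusted p = 0.127) and 0.008 (adjusted p = 0.926), so the targeted gene does not bear out the sh1 and sh4 labels of the organoids, and every organoid direction below is one between libraries so labelled. Library totals were 12733885 to 20185308 counts in NPCs, over the genes listed there, and 15899248 to 18853747 counts in organoids. The sources used here do not say how the genes of the NPC table were chosen, or why some members are absent from it. By the edgeR test none of its tested genes had an unadjusted p over 0.148 with sh1, where the highest with sh4 was 0.998. Whether its genes were chosen by the sh1 contrast was not tested. Its p-values and shares with sh1 may therefore not be those of an unselected list. The adjusted p was under 0.05 for 99.3% of the tested genes of the NPC table with sh1, for 88% with sh4 and for 27.6% between the hairpins. In organoids these shares were 46.7%, 67.9% and 49.9%, and for the differences between systems described below 73.7% with sh1 and 77.7% with sh4.

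Cell type markers in the organoids differed between the groups. The 10 mesenchyme markers summed to 22152 to 25112 CPM in sh1 and 41729.7 to 51248 CPM in sh4 organoids, against 3120 to 4604 CPM in NC organoids, and 10 of 10 were higher with both hairpins. The 8 choroid plexus markers summed to 939 to 2090.4 CPM in sh1 and 4177 to 9025 CPM in sh4, against 125 to 260.1 CPM in NC. Of these 8, 7 were higher with both hairpins, as were 4 of the 6 endoderm markers. TTR is in both of these lists and enters the counts and sums of each. The endoderm markers summed to 3233 to 9647 CPM in sh1 and 18843 to 66039 CPM in sh4, against 73.1 to 464 CPM in NC. The 10 neural progenitor markers summed to 2767 to 2863 CPM in sh1 and 1301 to 1732 CPM in sh4, against 3437 to 3974 CPM in NC. VIM, which mesenchyme also expresses, made up most of that sum, at 2154 ± 56.1 CPM in sh1 and 1252 ± 183 CPM in sh4, against 2109 ± 197 CPM in NC (SD, n = 3 each). Of the 10, 7 were lower with each hairpin and 6 with both, with median log2 fold changes of -1.87 with sh1 and -3.73 with sh4. The 10 neuron markers summed to 2397 to 2918 CPM in sh1 and 268 to 1096 CPM in sh4, against 3246 to 3632 CPM in NC, with 1 higher and 1 lower with sh1 and 10 lower with sh4. The 8 pluripotency markers summed to 95.9 to 107 CPM in sh1 and 93.0 to 119 CPM in sh4, against 738 to 1040.3 CPM in NC, and 8 of 8 were lower with both hairpins. Mitochondrial genes took 3.14 to 3.29% of counts in sh1 and 5.05 to 6.02% in sh4, against 3.07 to 3.50% in NC. PRDM14, a pluripotency marker, was at 0 in all sh4 organoids, and no other marker of these 6 lists was at 0 in a whole group of organoids. Lists of epithelium, endothelium, neural crest and muscle markers were also followed. The 7 epithelium markers summed to 539 to 735 CPM in sh1 and 2070 to 2769 CPM in sh4, against 820 to 944 CPM in NC. With sh1 1 of them was lower and none higher, and with sh4 6 were higher and none lower. The 6 endothelium markers summed to 135 to 221 CPM in sh1 and 449 to 640 CPM in sh4, against 135 to 175 CPM in NC. The part of these differences in each organoid result below was not tested, and fewer cells of a type and less RNA per cell cannot be told apart in bulk libraries.

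A gene was called higher or lower where its adjusted p was under 0.05 and its log2 fold change at least 1 in size, thresholds taken from the study's own design text. With sh1 in NPCs, 3 members were higher and 3 lower of 24 tested, where 18.4% of all 9860 tested genes were called (6.31% higher and 12.1% lower). With sh4 in NPCs, 6 were higher and 2 lower, against 18.1% of all genes (6.55% higher and 11.6% lower). The 6 higher include both SNRPN and SNURF, which share transcripts and are not independent. In organoids 32 members were tested: ASCL2 (0 to 0.329 CPM over the 9 libraries) and MEG8 (0 to 0.480 CPM) were under the filter on low counts, and PEG3 and ZIM2 were listed at 0 in all 9 libraries. PEG3 and ZIM2 overlap on the same strand over 30652 bases. Whether reads shared by the pair were dropped in counting is not known, so these values of 0 may not mean absent RNA. With sh1, 4 members were higher and 6 lower, where 20% of all 19704 tested genes were called (12.1% higher and 7.92% lower). With sh4 in organoids, 9 were higher and 7 lower, against 35.5% of all genes (20% higher and 15.5% lower).

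The members' median log2 fold changes were 0.21 with sh1 and 0.23 with sh4 in NPCs, where the medians of all tested genes were 0.11 and 0.031. In organoids they were 0.055 with sh1 and -0.32 with sh4, where the medians of all genes were 0.019 and -0.006. Under scaling by library size alone, the median over all tested genes shifted by -0.14 with either hairpin in NPCs and by -0.27 with sh4 in organoids. Under that scaling the higher share of all calls went to 23.7% with sh1 in NPCs (34.3% by the trimmed mean of M values, TMM, used here) and to 43.3% with sh4 in organoids (56.4% by TMM). Members then split 8 higher and 10 lower with sh4 in organoids, beside 9 and 7 by TMM. Log2 fold changes of sh4 organoids below are by TMM and would be lower by about that shift under library size alone.

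In organoids 4 members were higher with both hairpins, DLK1, IGF2, PLAGL1 and RTL1, where 10.2% of all tested genes were. All 4 are, as background, expressed from the paternal copy, and DLK1 and RTL1 lie in the same cluster. Another 5 were lower with both, BLCAP, MAGEL2, MEG3, MKRN3 and PHLDA2, where 6.18% of all tested genes were. Of these, MAGEL2 and MKRN3 are paternally and MEG3 and PHLDA2 maternally expressed. Other paternally expressed members, among them NDN, SGCE and SNRPN, were called with neither hairpin in organoids. Whether calls went with the expressed parental copy was not tested. In NPCs PHLDA2 and PLAGL1 were higher and DLK1 and RTL1 lower with both hairpins, where 4.62% and 8.48% of all tested genes were. No member was called in opposite directions with the 2 hairpins in organoids, where 0.218% of all tested genes were.

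**Figure D1:**
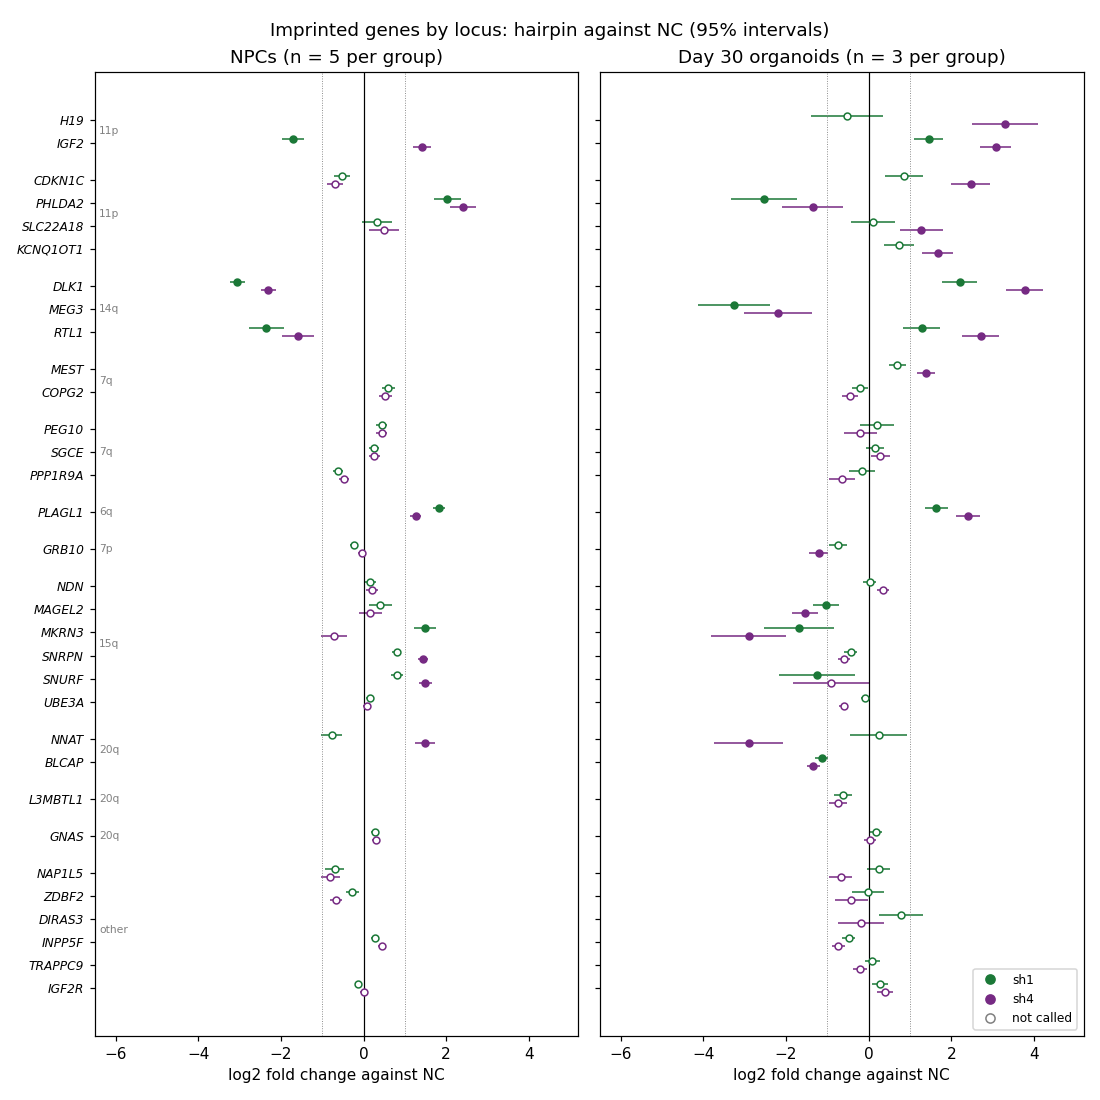
Log2 fold changes of the imprinted genes with sh1 and with sh4 against NC, by locus, in NPCs and organoids; filled points are called, open points are not, and the bars are 95% confidence intervals. DLK1 and RTL1 lie below 0 in NPCs and above 0 in organoids with both hairpins.

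The 11p cluster has a pair of control regions. The first governs IGF2, the fetal growth factor expressed from the paternal copy, and H19, a maternally expressed long noncoding RNA that competes with IGF2 for shared enhancers. In NPCs IGF2 (chr11:2129112-2149603, minus strand, GRCh38) moved in opposite directions with the 2 hairpins. It had 6.71, 4.56, 6.99, 8.76 and 9.14 CPM in sh1 libraries and 59.0, 61.6, 69.7, 64.9 and 62.9 CPM in sh4 libraries, against 22.4, 26.7, 22.3, 22.7 and 24.5 CPM in NC libraries. The 3 groups did not overlap, with NC between the hairpins. IGF2 fell with sh1, by a log2 fold change of -1.71 (SE 0.12, adjusted p = 2.69e-10), and rose with sh4, by 1.42 (SE 0.11, adjusted p = 4.01e-10). IGF2 was the only member called in opposite directions with the 2 hairpins in NPCs, as 0.101% of all tested genes were.

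In organoids IGF2 rose with both hairpins. It had 4468, 3538 and 5401 CPM in sh1 organoids and 15379, 11845 and 14007 CPM in sh4 organoids, against 1554, 1845 and 1504 CPM in NC organoids. Every sh4 value was above every sh1 value, and every sh1 value above every NC value. The log2 fold changes were 1.45 with sh1 (SE 0.16, adjusted p = 9.32e-05) and 3.07 with sh4 (SE 0.17, adjusted p = 6.8e-07). This single gene took 1.10 to 1.29% of all counts in sh4 organoids and 0.368 to 0.558% in sh1 organoids, against 0.161 to 0.199% in NC organoids. The mesenchyme, choroid plexus and endoderm marker sums, given above, also lay lowest in NC and highest in sh4. Their part in the IGF2 change was not tested.

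H19 is shown here by the 250 bases before its RefSeq start (chr11:2001267-2001516, minus strand, GRCh38.p14, RefSeq), because in organoids it was called with sh4 and not with sh1, while IGF2 was called with both. CG dinucleotides, which the zinc finger of KDM2A binds when unmethylated, are in capitals. The GENCODE start of H19 lies within this window.
H19: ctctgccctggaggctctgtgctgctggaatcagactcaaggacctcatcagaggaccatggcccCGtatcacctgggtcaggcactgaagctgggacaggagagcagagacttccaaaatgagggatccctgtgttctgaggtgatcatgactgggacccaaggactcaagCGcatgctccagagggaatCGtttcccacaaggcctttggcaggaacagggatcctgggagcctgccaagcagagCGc
The window holds 4 CG, and 70.7% of the 35116 RefSeq windows of this length hold at least as many. H19 had 1.04, 0.604 and 2.14 CPM in sh1 organoids and 19.3, 15.5 and 19.2 CPM in sh4 organoids, against 1.33, 1.97 and 2.17 CPM in NC organoids. The sh4 organoids stood apart, while sh1 and NC overlapped. H19 rose with sh4 by a log2 fold change of 3.30 (SE 0.35, adjusted p = 2.49e-05), where its change with sh1 was -0.53 (SE 0.39, adjusted p = 0.295). Without sh1 replicate 3, the sh1 library with the highest value, that change was -1.15 and H19 was called lower.

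The second control region on 11p is the promoter of KCNQ1OT1, a paternally expressed antisense RNA that represses its neighbours in cis. Those neighbours, expressed from the maternal copy, include CDKN1C, which encodes the cyclin-dependent kinase inhibitor p57, PHLDA2, a restrainer of placental growth, and SLC22A18, an organic cation transporter. In organoids with sh4 the antisense RNA rose together with 2 of these neighbours, CDKN1C and SLC22A18, while PHLDA2 fell. KCNQ1OT1 had 68.8, 62.6 and 60.0 CPM in sh1 organoids and 142, 98.7 and 126 CPM in sh4 organoids, against 36.0, 47.4 and 31.8 CPM in NC organoids. The 3 groups did not overlap. Its log2 fold change was 1.67 with sh4 (SE 0.16, adjusted p = 1.49e-05), while that with sh1, 0.73 (SE 0.16, adjusted p = 0.00491), fell short of the fold threshold. KCNQ1OT1 lies antisense within KCNQ1, no source used here gives the strand setting of the counting, and KCNQ1 was also called higher with sh4 (log2 fold change 1.76, adjusted p = 0.00021), so their reads cannot be told apart.

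CDKN1C had 235, 162 and 273 CPM in sh1 organoids and 776, 562 and 712 CPM in sh4 organoids, against 104, 151 and 115 CPM in NC organoids. It rose with sh4 by 2.47 (SE 0.21, adjusted p = 6.92e-06); with sh1 the log2 fold change was 0.86 (SE 0.21, adjusted p = 0.00712), not called, though it was called at 1.03 to 1.05 without NC replicate 2 or without sh1 replicate 2. SLC22A18 had 6.91, 4.94 and 7.12 CPM in sh1 organoids and 18.8, 13.4 and 10.4 CPM in sh4 organoids, against 5.85, 6.56 and 5.16 CPM in NC organoids. Only the sh4 organoids stood clear of NC. Its log2 fold change with sh4 was 1.28 (SE 0.24, adjusted p = 0.000871), which became 0.98 and was no longer called under scaling by library size alone.

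PHLDA2, next to SLC22A18, fell in organoids and rose in NPCs. In organoids it had 0.932, 0.330 and 0.822 CPM with sh1 and 2.01, 1.35 and 1.38 CPM with sh4, against 3.75, 3.79 and 4.57 CPM in NC. Every NC value was above every hairpin value. PHLDA2 fell by log2 fold changes of -2.53 with sh1 (SE 0.36, adjusted p = 0.000386) and -1.35 with sh4 (SE 0.33, adjusted p = 0.00462). In NPCs it had 4.76, 3.18, 4.58, 4.71 and 4.31 CPM with sh1 and 5.06, 5.23, 5.12, 5.91 and 6.75 CPM with sh4, against 1.15, 0.875, 1.09, 1.16 and 0.991 CPM in NC. There every hairpin value was above every NC value, and PHLDA2 rose by 2.03 with sh1 (SE 0.16, adjusted p = 8.04e-10) and 2.41 with sh4 (SE 0.15, adjusted p = 3.76e-11). All of these levels are low.

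Of the other 11p members in NPCs, CDKN1C had 20.0 to 27.3 CPM with sh1 and 19.2 to 24.0 CPM with sh4, against 30.7 to 39.5 CPM in NC. Its log2 fold changes, -0.53 and -0.69 (adjusted p = 3.09e-05 and 1.37e-06 by edgeR), did not reach the fold threshold, although every NC value was above every hairpin value. SLC22A18 had 5.54 to 8.27 CPM with sh1 and 4.97 to 10.2 CPM with sh4, against 4.15 to 6.42 CPM in NC, and was not called.

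**Figure D2:**
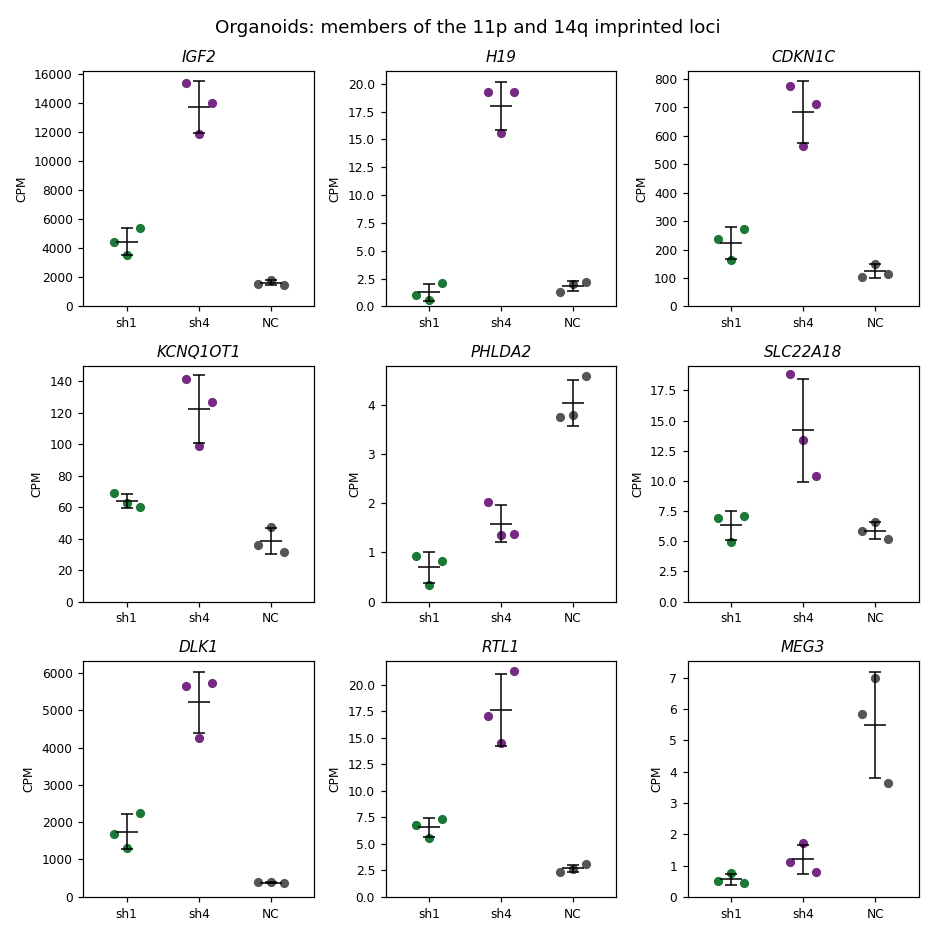
CPM of 9 members at 11p and 14q in each organoid library, on linear axes from 0, with sh1, sh4 and NC from left to right in each panel; points are libraries, ticks are group means and whiskers the SD. IGF2 and DLK1 lie highest in sh4 and lowest in NC, while MEG3 and PHLDA2 lie highest in NC.

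The 14q cluster holds DLK1, a transmembrane protein of the Notch ligand family that restrains differentiation, and RTL1, a retrotransposon-derived protein needed in placenta, both expressed from the paternal copy. From the maternal copy it expresses the long noncoding RNAs MEG3 and MEG8. DLK1 had the largest fold change among members in NPCs with sh1, and there it fell. It had 18.5, 17.1, 16.6, 20.5 and 23.3 CPM in sh1 libraries and 29.9, 30.2, 31.6, 31.6 and 39.0 CPM in sh4 libraries, against 162, 173, 154, 149 and 164 CPM in NC libraries. The groups did not overlap, with sh1 lowest. DLK1 was 8.33-fold lower with sh1 (log2 fold change -3.06, SE 0.089, adjusted p = 1.09e-15) and 4.94-fold lower with sh4 (log2 fold change -2.31, SE 0.084, adjusted p = 1.55e-14).

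RTL1 moved with DLK1 in NPCs. It had 1.07, 1.26, 2.24, 0.922 and 1.03 CPM with sh1 and 2.31, 2.23, 2.48, 2.48 and 1.62 CPM with sh4, against 7.56, 5.92, 8.30, 6.90 and 5.01 CPM in NC. All NC values were above all hairpin values, and the 2 hairpins overlapped. The log2 fold changes were -2.36 with sh1 (SE 0.20, adjusted p = 3.35e-09) and -1.59 with sh4 (SE 0.19, adjusted p = 1.98e-07).

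In organoids the same pair rose, while MEG3 fell. DLK1 had 1693, 1299 and 2248 CPM in sh1 organoids and 5651, 4261 and 5718 CPM in sh4 organoids, against 387, 387 and 365 CPM in NC organoids. The groups lay apart, sh4 highest. DLK1 was 4.60-fold higher with sh1 (log2 fold change 2.20, SE 0.19, adjusted p = 2.18e-05) and 13.7-fold higher with sh4 (log2 fold change 3.78, SE 0.20, adjusted p = 5.88e-07). RTL1 had 6.75, 5.55 and 7.34 CPM in sh1 organoids and 17.1, 14.5 and 21.3 CPM in sh4 organoids, against 2.37, 2.67 and 3.05 CPM in NC organoids, in the same order. Its log2 fold changes were 1.28 with sh1 (SE 0.20, adjusted p = 0.000639) and 2.71 with sh4 (SE 0.20, adjusted p = 2.51e-06). RTL1 overlaps MEG8 over 8953 bases on the opposite strand, and reads from the pair cannot be told apart without strand.

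The promoter windows of MEG3 (chr14:100825858-100826107, plus strand) and RTL1 (chr14:100903723-100903972, minus strand) are shown because these neighbours moved in opposite directions in organoids. Both are the 250 bases before the RefSeq start in GRCh38.p14, with CG in capitals.
MEG3: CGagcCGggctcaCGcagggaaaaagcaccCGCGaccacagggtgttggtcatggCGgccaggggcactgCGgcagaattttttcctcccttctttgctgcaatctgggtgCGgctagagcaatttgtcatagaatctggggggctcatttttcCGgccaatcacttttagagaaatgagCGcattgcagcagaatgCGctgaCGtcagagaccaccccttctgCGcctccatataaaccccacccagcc
RTL1: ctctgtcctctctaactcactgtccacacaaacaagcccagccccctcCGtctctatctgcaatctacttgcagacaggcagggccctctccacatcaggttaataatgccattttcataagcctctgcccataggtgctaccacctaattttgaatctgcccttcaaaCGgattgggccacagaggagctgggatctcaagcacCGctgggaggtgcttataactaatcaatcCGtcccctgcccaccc
The MEG3 window holds 13 CG and 1 match, on either strand, to TGCCGC, the core motif of the imprint-maintaining zinc finger protein ZFP57; the RTL1 window holds 4 CG and no match. Of all 35116 windows, 46.6% hold at least 13 CG, 70.7% hold at least 4 and 12.7% hold TGCCGC. Matches to TGCCGC contain a CG, so the 2 counts are not independent. MEG3 had 0.494, 0.769 and 0.438 CPM in sh1 organoids and 1.10, 1.71 and 0.779 CPM in sh4 organoids, against 5.85, 6.99 and 3.64 CPM in NC organoids. Every NC value was above every hairpin value. MEG3 fell by log2 fold changes of -3.26 with sh1 (SE 0.39, adjusted p = 0.000158) and -2.19 with sh4 (SE 0.36, adjusted p = 0.000444), from a level of a few CPM.

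PLAGL1 on 6q, a zinc finger transcription factor expressed from the paternal copy, was higher in both systems with both hairpins. In NPCs it had 115, 117, 119.9, 124 and 126 CPM with sh1 and 78.6, 86.8, 81.0, 78.7 and 83.5 CPM with sh4, against 33.6, 33.5, 29.05, 33.1 and 40.4 CPM in NC. In organoids it had 93.3, 87.5 and 96.1 CPM with sh1 and 159, 129 and 179.8 CPM with sh4, against 26.7, 28.7 and 33.5 CPM in NC. No library of either hairpin reached down to the NC values in either system. The log2 fold changes in NPCs were 1.83 with sh1 (SE 0.065, adjusted p = 1.81e-14) and 1.27 with sh4 (SE 0.065, adjusted p = 1.94e-12). Those in organoids were 1.64 with sh1 (SE 0.13, adjusted p = 1.17e-05) and 2.40 with sh4 (SE 0.13, adjusted p = 6.06e-07). It was the only one of the 24 members in both tables that was called in the same direction in all 4 of these comparisons.

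The 15q cluster, lost from the paternal copy in Prader-Willi syndrome, holds MKRN3, a ubiquitin ligase that holds back puberty, and MAGEL2 and NDN, proteins of the MAGE family. It also holds SNRPN, a spliceosomal protein, with the upstream frame SNURF, and UBE3A, the ubiquitin ligase of Angelman syndrome, which in neurons is expressed from the maternal copy. MKRN3 and MAGEL2 are shown by the 250 bases before their RefSeq starts (chr15:23565424-23565673, plus strand, and chr15:23647868-23648117, minus strand, GRCh38.p14), since both fell in organoids while NDN beside them was not called.
MKRN3: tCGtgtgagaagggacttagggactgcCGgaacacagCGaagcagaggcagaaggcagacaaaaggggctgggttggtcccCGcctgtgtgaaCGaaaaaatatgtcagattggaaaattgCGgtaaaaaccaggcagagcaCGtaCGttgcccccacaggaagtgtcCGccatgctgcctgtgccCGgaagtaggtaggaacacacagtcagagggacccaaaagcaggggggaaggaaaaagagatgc
MAGEL2: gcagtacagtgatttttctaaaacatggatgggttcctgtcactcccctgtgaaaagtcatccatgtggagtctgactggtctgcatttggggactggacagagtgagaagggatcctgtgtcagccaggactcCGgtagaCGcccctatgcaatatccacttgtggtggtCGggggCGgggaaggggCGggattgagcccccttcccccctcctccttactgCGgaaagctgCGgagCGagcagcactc
With CG in capitals, the MKRN3 window holds 10 CG and the MAGEL2 window 8, numbers that 52.2% and 56.3% of all windows reach. Neither holds TGCCGC. In all, 22 of the 36 members had RefSeq windows, 51 of them. Their median was 15 CG, where all windows had a median of 11. TGCCGC was in 31.4% of these 51, beside 12.7% of all windows. Some of the 51 overlap: those of MEG3 hold the same match, and SNRPN and SNURF share a window that holds TGCCGC. Single matches were thus counted repeatedly, and the difference between these shares was not tested.

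MKRN3 had 4.44, 2.91 and 6.91 CPM in sh1 organoids and 0.909, 3.24 and 1.92 CPM in sh4 organoids, against 15.1, 16.3 and 14.4 CPM in NC organoids. NC lay above all hairpin libraries, and sh1 and sh4 overlapped. It fell by log2 fold changes of -1.68 with sh1 (SE 0.38, adjusted p = 0.00496) and -2.90 with sh4 (SE 0.41, adjusted p = 0.000148). In NPCs it had 10.5, 8.95, 9.56, 8.35 and 7.35 CPM with sh1 and 1.81, 1.66, 2.38, 1.95 and 1.89 CPM with sh4, against 3.18, 3.45, 3.28, 3.64 and 2.40 CPM in NC. There it rose with sh1, by 1.48 (SE 0.13, adjusted p = 3.39e-09), while with sh4 the log2 fold change was -0.71 (SE 0.15, adjusted p = 0.000239), under the fold threshold.

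MAGEL2 had 23.1, 23.5 and 26.6 CPM in sh1 organoids and 16.0, 15.5 and 20.0 CPM in sh4 organoids, against 58.2, 42.2 and 49.3 CPM in NC organoids. All NC values were above all hairpin values. The log2 fold changes were -1.03 with sh1 (SE 0.14, adjusted p = 0.000274) and -1.54 with sh4 (SE 0.14, adjusted p = 9.56e-06). The sh1 call stood at the threshold and was lost, at -0.91 and -0.99, without NC replicate 1 or without sh1 replicate 1. In NPCs MAGEL2 had 4.94 to 8.17 CPM with sh1 and 4.62 to 5.91 CPM with sh4, against 4.08 to 5.27 CPM in NC, and was not called.

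SNRPN rose with sh4 in NPCs. It had 363, 332, 347, 354 and 359 CPM with sh1 and 589, 504, 480.3, 590.3 and 567 CPM with sh4, against 206, 194, 208, 197 and 203 CPM in NC. The 3 groups did not overlap. The log2 fold change was 1.44 with sh4 (SE 0.055, adjusted p = 3.01e-14) and, not called, 0.80 with sh1 (SE 0.055, adjusted p = 1.41e-10). SNURF, which shares its annotated span with SNRPN over 22865 bases, had 311, 252, 278, 279 and 286 CPM with sh1 and 475, 419.5, 377, 508 and 481 CPM with sh4, against 167, 153, 173, 162 and 148 CPM in NC. Its log2 fold changes were 0.81 (SE 0.073, adjusted p = 6.2e-09) and 1.49 (SE 0.074, adjusted p = 9.38e-13), the second of which was called. The 2 symbols share transcripts and are not independent.

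In organoids SNRPN had 158 to 168 CPM with sh1 and 145 to 148 CPM with sh4, against 202 to 237 CPM in NC, with log2 fold changes of -0.43 and -0.59 (adjusted p = 0.000698 and 3.97e-05 by edgeR), neither called. SNURF had 0.658, 0.549 and 0.384 CPM with sh1 and 0.649, 0.765 and 0.599 CPM with sh4, against 1.99, 1.01 and 0.821 CPM in NC. The ratio of SNURF to SNRPN was 0.728 to 0.860 in NPC libraries and 0.00228 to 0.00838 in organoid libraries, and whether the counting divided the shared reads alike in the 2 tables was not tested. SNURF was called lower with sh1 in organoids (-1.26, SE 0.41, adjusted p = 0.0315), a call that was lost without NC replicate 1 or without any 1 of the 3 sh1 libraries, at -0.79 to -1.43.

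NDN and UBE3A were called in no comparison of hairpin and NC. NDN had 114 to 123 CPM in sh1 organoids and 139 to 156 CPM in sh4 organoids, against 112 to 123 CPM in NC organoids. Its log2 fold changes there were 0.021 with sh1 (95% interval -0.13 to 0.17) and 0.35 with sh4 (95% interval 0.20 to 0.50). UBE3A had 132 to 138 CPM in sh1 organoids and 93.3 to 95.3 CPM in sh4 organoids, against 143 to 145 CPM in NC organoids, with log2 fold changes of -0.084 and -0.61. In NPCs the log2 fold changes of NDN were 0.15 and 0.20, and those of UBE3A were 0.17 and 0.083, with sh1 and with sh4.

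**Figure D3:**
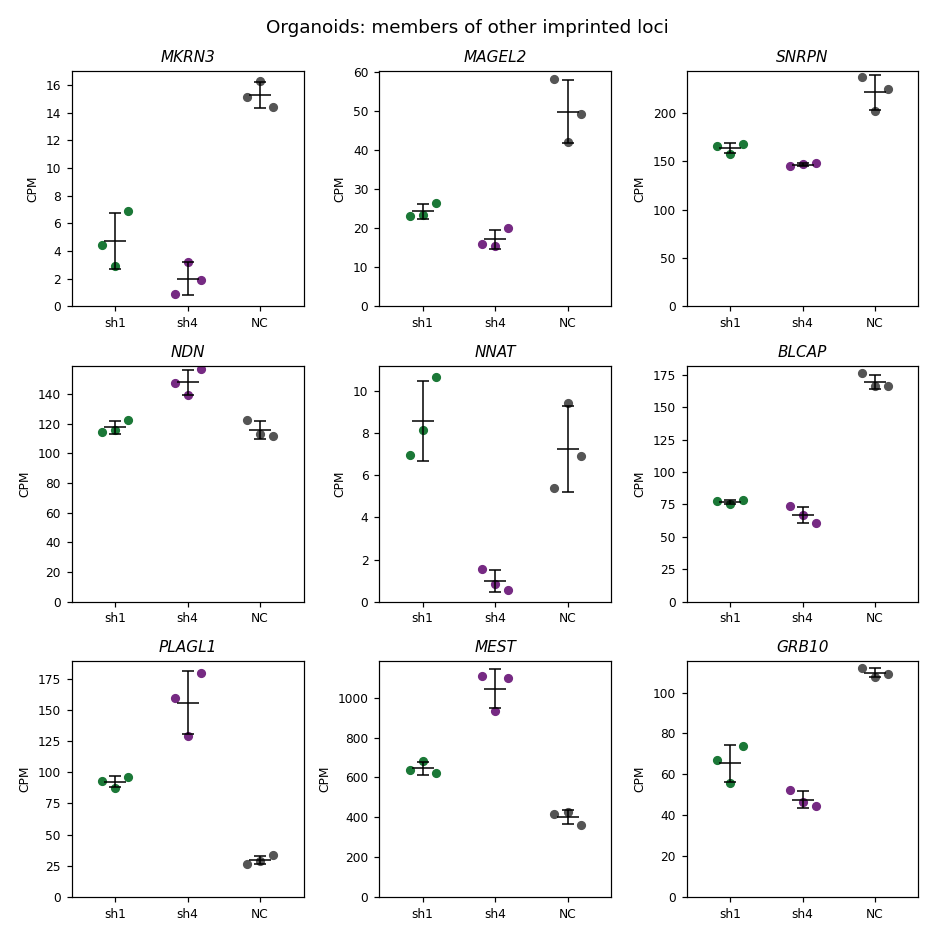
CPM of 9 members at the other loci in each organoid library, on linear axes from 0, with sh1, sh4 and NC from left to right; points are libraries, ticks are group means and whiskers the SD. MAGEL2, MKRN3 and BLCAP are highest in NC, PLAGL1 and MEST are highest in sh4, and NNAT is lowest in sh4.

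On 20q, NNAT, a small membrane protein of the endoplasmic reticulum expressed from the paternal copy, lies within an intron of BLCAP, a small membrane protein of wide expression. NNAT differed between the hairpins in both systems. In NPCs it had 42.4, 42.1, 41.7, 51.3 and 65.5 CPM with sh1 and 213, 222, 247, 239 and 248 CPM with sh4, against 72.3, 90.9, 68.9, 77.8 and 104 CPM in NC. The sh4 libraries lay above NC and the sh1 libraries below it. NNAT rose with sh4 by a log2 fold change of 1.49 (SE 0.12, adjusted p = 7.32e-10), and its change with sh1 was -0.77 (SE 0.12, adjusted p = 8.44e-06), not called.

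In organoids NNAT had 6.97, 8.13 and 10.7 CPM with sh1 and 1.56, 0.824 and 0.539 CPM with sh4, against 5.41, 9.44 and 6.92 CPM in NC. Here the sh4 organoids were lowest, and sh1 and NC overlapped. NNAT fell with sh4 (log2 fold change -2.90, SE 0.37, adjusted p = 8.1e-05), where its log2 fold change with sh1 was 0.24 (SE 0.31, adjusted p = 0.549). Neuron markers summed to 268 to 1096 CPM in these sh4 organoids, against 3246 to 3632 CPM in NC. The part of this in the NNAT change was not tested.

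BLCAP fell with both hairpins in organoids. It had 77.3, 75.0 and 78.4 CPM with sh1 and 73.5, 66.8 and 61.0 CPM with sh4, against 176, 166 and 166 CPM in NC, and the groups did not overlap. The log2 fold changes were -1.14 with sh1 (SE 0.073, adjusted p = 4.88e-06) and -1.34 with sh4 (SE 0.074, adjusted p = 6.78e-07). BLCAP and NNAT overlap over 2488 bases on opposite strands, which is the whole span of NNAT. Reads from that stretch cannot be told apart without strand.

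On 7q, MEST, a paternally expressed protein of the hydrolase fold marking mesoderm, rose with sh4 in organoids. It had 635, 683 and 622 CPM with sh1 and 1108, 933 and 1099 CPM with sh4, against 418, 425 and 359 CPM in NC. The groups did not overlap. The log2 fold change was 1.39 with sh4 (SE 0.094, adjusted p = 1.74e-06) and, under the threshold, 0.69 with sh1 (SE 0.093, adjusted p = 0.000292). GRB10 on 7p, an adaptor that dampens insulin and IGF1 receptor signalling, had 66.9, 55.8 and 73.7 CPM with sh1 and 52.2, 46.3 and 44.4 CPM with sh4, against 112, 108 and 109 CPM in NC. It fell with sh4 (log2 fold change -1.20, SE 0.10, adjusted p = 6.39e-06), and its log2 fold change with sh1 was -0.74 (SE 0.10, adjusted p = 0.000314), not called.

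**Figure D4:**
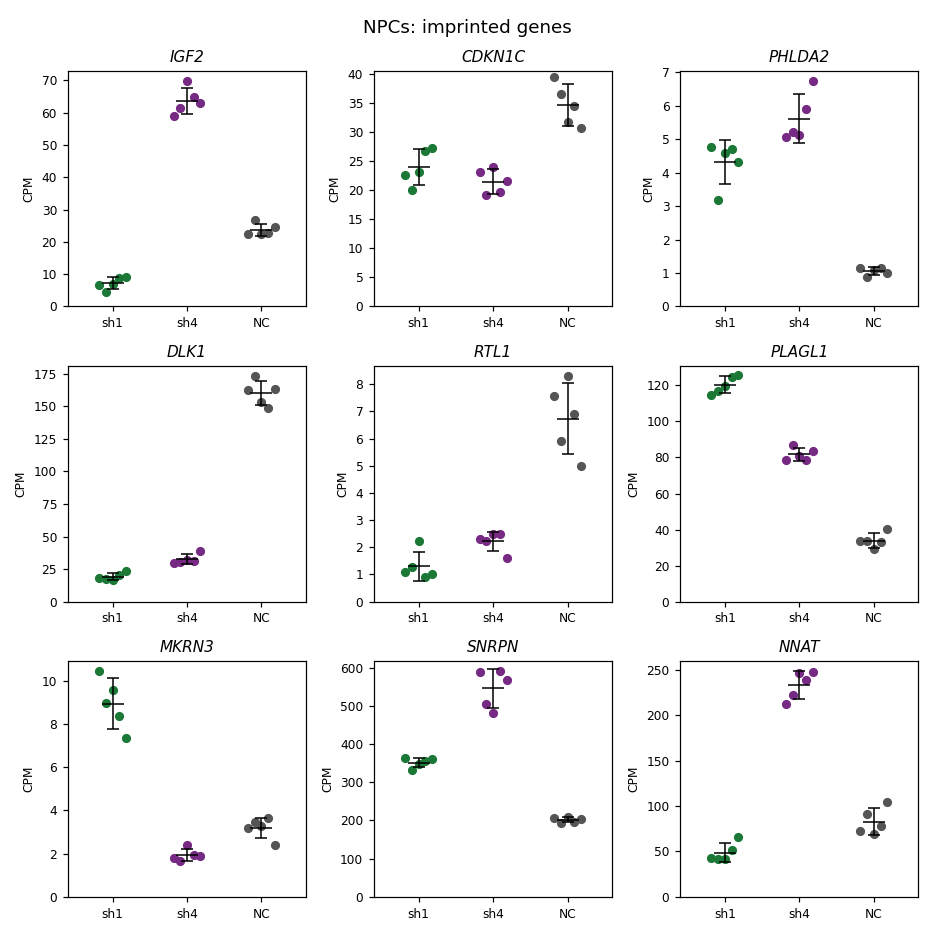
CPM of 9 members in each NPC library, on linear axes from 0, with sh1, sh4 and NC from left to right; points are libraries, ticks are group means and whiskers the SD. DLK1 and RTL1 are highest in NC, PLAGL1 and PHLDA2 are lowest in NC, and IGF2 and NNAT lie on either side of NC.

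The remaining members were called in no comparison of hairpin and NC in either system. PEG10, a retrotransposon-derived placental protein, had 1258 to 1383 CPM with sh1 and 1205 to 1369 CPM with sh4, against 828 to 1077 CPM in NC NPCs. Its neighbour SGCE, a sarcoglycan, had log2 fold changes of 0.25 and 0.26 in NPCs, and PPP1R9A, the actin-binding neurabin, of -0.61 and -0.48, with sh1 and sh4. COPG2, a coat protein subunit that overlaps MEST, had 0.60 and 0.52 in NPCs and -0.21 and -0.45 in organoids. GNAS, the stimulatory G protein subunit, had 0.29 and 0.31 in NPCs and 0.19 and 0.042 in organoids.

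IGF2R, the receptor that clears IGF2, had 184 to 192 CPM in sh1 organoids and 189 to 234 CPM in sh4 organoids, against 144 to 162 CPM in NC organoids, with log2 fold changes of 0.27 and 0.40. In NPCs its log2 fold changes were -0.13 with sh1 and 0.000 with sh4 (95% interval -0.089 to 0.090). INPP5F, a phosphoinositide phosphatase, had 0.27 and 0.45 in NPCs and -0.49 and -0.74 in organoids. NAP1L5, of the nucleosome assembly protein family, had -0.70 and -0.80 in NPCs and 0.24 and -0.68 in organoids, and the zinc finger protein ZDBF2 had -0.27 and -0.67 in NPCs and -0.016 and -0.42 in organoids. Among the members found in organoids only, the log2 fold changes were -0.63 and -0.74 for the chromatin protein L3MBTL1, 0.78 and -0.19 for the Ras-like protein DIRAS3, and 0.089 and -0.21 for the trafficking subunit TRAPPC9. Each pair gives sh1 and then sh4.

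The hairpin effects in the 2 systems were compared by the difference, NPC effect minus organoid effect, in 1 edgeR fit. That fit covered the 10028 genes that were listed in both tables and passed its filter on low counts. With sh1, 5 members differed upward and 4 downward of 24, where 30.5% of all tested genes were called (11.8% upward and 18.7% downward). With sh4, 8 differed upward and 5 downward, where 39.7% of all genes were called (16.6% upward and 23.1% downward). Both upward counts of members include SNRPN and SNURF, which are not independent. DLK1 gave the largest difference, -5.23 with sh1 (SE 0.20, adjusted p = 4.12e-16) and -6.09 with sh4 (SE 0.20, adjusted p = 1.23e-17), as it fell in NPCs and rose in organoids. RTL1 did the same, with differences of -3.61 (SE 0.32, adjusted p = 6.06e-10) and -4.31 (SE 0.30, adjusted p = 5.64e-12). PHLDA2, higher in NPCs and lower in organoids, gave 4.59 (SE 0.32, adjusted p = 9.06e-12) and 3.76 (SE 0.30, adjusted p = 4.19e-11).

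IGF2 differed by -3.13 with sh1 (SE 0.20, adjusted p = 2.86e-12), where the directions were opposite, and by -1.66 with sh4 (SE 0.19, adjusted p = 2.28e-08), where both systems rose. PLAGL1 rose in both systems; its difference was 0.22 with sh1 (SE 0.13, adjusted p = 0.138) and -1.14 with sh4 (SE 0.13, adjusted p = 2.86e-08). The sh4 difference was -0.94 and no longer called without organoid sh4 replicate 3. MAGEL2, MKRN3 and SNRPN also differed upward with both hairpins, as did SNURF, whose ratio to SNRPN differs between the tables, and CDKN1C differed downward with both. GRB10, NNAT and INPP5F differed upward with sh4. KDM2A itself differed by -1.12 with sh1 (SE 0.091, adjusted p = 1.49e-10) and -0.98 with sh4 (SE 0.091, adjusted p = 7.12e-10). The NPC table listed 7 of the 10 mesenchyme markers, which summed to 5536 to 6765 CPM with sh1 and 6579 to 7480 CPM with sh4, against 7139 to 7800 CPM in NC NPCs. COL3A1 made up most of that sum, at 4230 ± 396 CPM with sh1 and 4508 ± 353 CPM with sh4, against 6157 ± 284 CPM in NC (SD, n = 5 each), and was not called. Of the 7, 1 was higher with sh1 and 5 with sh4 and none lower, with median log2 fold changes of 0.81 and 1.26. The collagen-binding proteoglycans LUM (1.47 with sh1 and 3.67 with sh4) and DCN (0.60 and 3.40) had the largest values with sh4, and that of DCN with sh1 was not called.

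**Figure D5:**
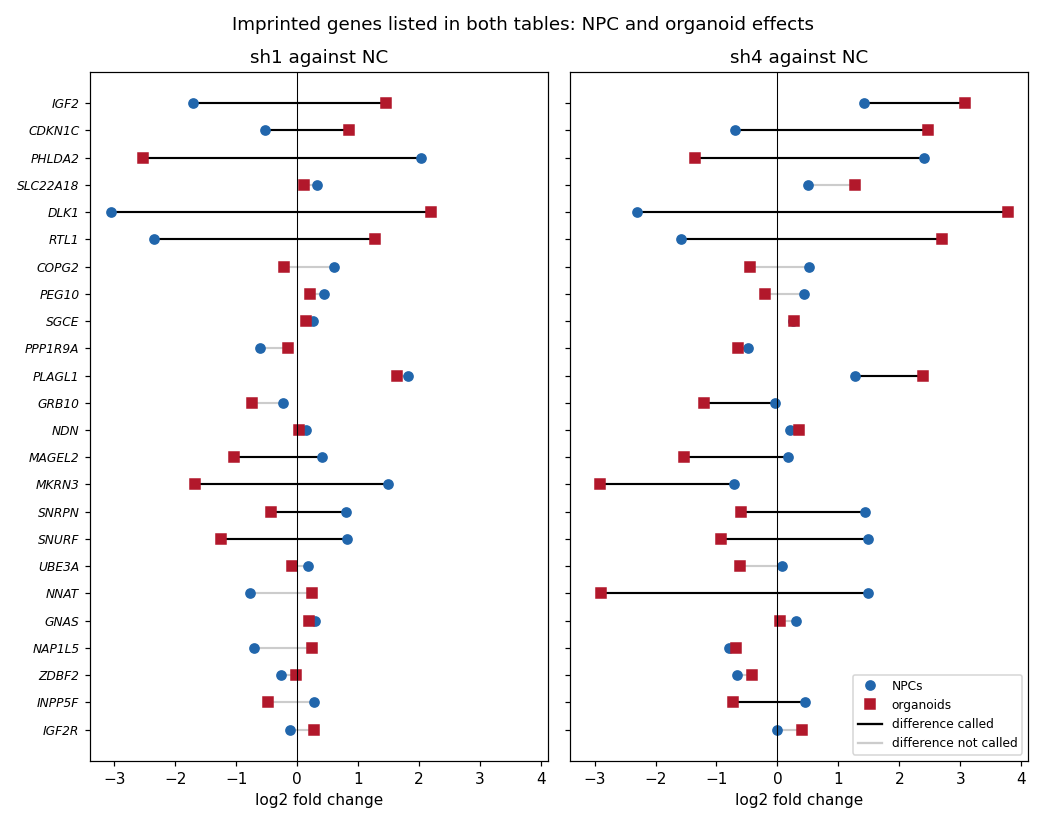
Log2 fold change against NC of the 24 members in both tables, with 1 row a gene, for sh1 and for sh4; circles are NPCs, squares are organoids, and a black line joins the pair where their difference was called. The longest lines belong to DLK1, with NPCs below 0 and organoids above, and those of PHLDA2 run the other way.

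The 2 hairpins were also set against each other. In NPCs 1 member was higher with sh1 than with sh4 and 2 were lower, where 4.6% of all tested genes were called (2.18% higher and 2.42% lower). MKRN3 was higher with sh1 than with sh4 (log2 fold change 2.20, SE 0.14, adjusted p = 1.79e-10), while IGF2 (-3.13, SE 0.12, adjusted p = 1.08e-13) and NNAT (-2.26, SE 0.12, adjusted p = 1.93e-11) were lower. For all 3, NC values lay between those of sh1 and sh4 in NPCs, with sh1 highest for MKRN3 and sh4 highest for IGF2 and NNAT. KDM2A differed between the hairpins there by a log2 fold change of -0.048 (95% interval -0.16 to 0.068).

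In organoids 2 members were higher with sh1 than with sh4 and 7 lower, where 19% of all tested genes were called (7.83% higher and 11.2% lower). The 7 lower were H19 (-3.83, SE 0.37, adjusted p = 0.000106), IGF2 (-1.62, SE 0.16, adjusted p = 0.000116), CDKN1C (-1.61), DLK1 (-1.58), RTL1 (-1.43), PHLDA2 (-1.18) and SLC22A18 (-1.17). Of these 7, 5 lie in the 11p cluster. There 2 members were tested under the control region of IGF2 and H19, and 4 under that of KCNQ1OT1. NNAT was higher with sh1 (3.15, SE 0.37, adjusted p = 0.000218), as was MKRN3 (1.22, SE 0.41, adjusted p = 0.0325). The MKRN3 call was lost without sh1 replicate 1 or 3 or without sh4 replicate 1 or 3 (0.82 to 1.27), with the replicate block (1.25) and with only the 2 groups compared (1.22). The PHLDA2 call was lost without sh1 replicate 2 or sh4 replicate 1 (-0.84 to -0.97), under library size alone (-0.93) and with only the 2 groups compared (-1.18). The SLC22A18 call was lost without sh4 replicate 1 (-0.91) and under library size alone (-0.92). Library size alone gave 4 members higher and 5 lower, beside 2 and 7 by TMM; over all genes it put 57.3% of calls higher with sh1, beside 41.2%. Between sh1 and sh4 organoids, 6 of the 8 choroid plexus markers and 4 of the 6 endoderm markers were lower with sh1 and none higher. All 7 epithelium markers were lower with sh1 as well. Of the 10 neural progenitor markers 6 were higher with sh1 and none lower, and the same counts held for the 10 neuron markers. Of the 7 neural crest markers 3 were higher, and of the 6 endothelium markers 1 was lower. For muscle 1 of the 4 tested was lower, and no pluripotency marker was called. Of the 10 mesenchyme markers, 3 were lower with sh1 (COL3A1, DCN and LUM), 1 was higher (TWIST1) and 6 were not called.

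A further 3 lists were followed for context. Of 25 factors that set or keep imprints (DNA methyltransferases, TET enzymes, ZFP57 and its partners), 21 were tested in NPCs and 22 in organoids. With both hairpins in NPCs 3 were higher and none lower, where 4.62% of all tested genes were higher and 8.48% lower. ZFP57, which protects methylated control regions, had 0.866 ± 0.249 CPM with sh1 and 1.38 ± 0.513 CPM with sh4, against 0.0871 ± 0.0766 CPM in NC (SD, n = 5 each). DPPA3, an oocyte factor that guards methylation, had 0.964 ± 0.202 CPM with sh1 and 0.993 ± 0.257 CPM with sh4, against 0.0463 ± 0.0273 CPM in NC. NLRP7, a maternal-effect gene of the oocyte, had 8.05 ± 1.34 CPM with sh1 and 2.01 ± 0.630 CPM with sh4, against 0.809 ± 0.392 CPM in NC. All 3 are low, and fold changes against NC levels so near 0 depend on the small count that edgeR adds. The pluripotency sum in NPCs was 1791 to 1911 CPM with sh1 and 1662 to 1774 CPM with sh4, against 1101 to 1177 CPM in NC. Of its 8 markers 4 were higher with both hairpins, NANOG, PRDM14, TDGF1 and ZFP42, while POU5F1, the factor OCT4, was lower with both (log2 fold changes -1.83 and -1.39, adjusted p = 1.9e-10 and 6.14e-09). LIN28A, an RNA-binding protein, made up most of the sum with both hairpins.

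In organoids no factor of that list was higher and 3 were lower with both hairpins, where 10.2% of all tested genes were higher and 6.18% lower. DNMT3B, a de novo DNA methyltransferase of early embryonic cells, had 39.2 ± 2.17 CPM with sh1 and 34.7 ± 5.53 CPM with sh4, against 259 ± 73.1 CPM in NC (SD, n = 3 each), log2 fold changes of -2.73 and -2.90 (adjusted p = 7.46e-06 and 1.66e-06). HELLS, a chromatin remodeller for DNA methylation, had log2 fold changes of -1.07 and -1.46 (adjusted p = 0.00239 and 0.00018). NLRP7 was at 0 in all sh1 organoids and had 1.26 ± 0.248 CPM in NC. The pluripotency sum was lower in the same libraries, as given above. With sh1 the list had 0 higher and 3 lower (median log2 fold change -0.18) and with sh4 0 higher and 8 lower (median -0.67), of 22 tested. Of all tested genes, 12.1% were higher and 7.92% lower with sh1, and 20% were higher and 15.5% lower with sh4.

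In the IGF axis of 17 genes, of which IGF2 and IGF2R are members, 11 were tested in NPCs and 16 in organoids. In NPCs 3 were higher and none lower with both hairpins, beside 4.62% and 8.48% of all tested genes. IGFBP3, a binding protein that holds IGFs in the blood and tissue, had log2 fold changes of 1.30 with sh1 and 3.21 with sh4 (adjusted p = 2.42e-07 and 2.8e-13), IGFBP4 of 1.61 and 1.81, and the insulin receptor INSR of 1.20 and 1.11. In organoids 6 were higher with both, IGF1, IGF2, IGFBP3, IGFBP4, IGFBP5 and IGFBP7, and IRS2, an adaptor of the receptors, was lower, beside 10.2% and 6.18% of all tested genes. IGFBP5 had 1502 ± 298 CPM with sh1 and 1073 ± 192 CPM with sh4, against 137 ± 25.9 CPM in NC (SD, n = 3 each), log2 fold changes of 3.46 and 2.97 (adjusted p = 3.17e-06 and 1.66e-06). IGFBP3 had log2 fold changes of 2.68 and 4.02, IGFBP4 of 1.32 and 1.54, and IRS2 of -1.39 and -2.36. Several IGF binding proteins are, as background, also expressed in mesenchyme. Mesenchyme, choroid plexus and endoderm marker sums rose in the same libraries, and their part in these values was not tested. Between the hairpins in organoids, IGF2, IGFBP3, IGFBP6 and IGFBP7 were called higher with sh4 and IGF1 with sh1. The medians of the IGF axis were 0.20 with sh1 and 0.70 with sh4 in NPCs, and 0.13 with each hairpin in organoids.

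Of 47 other imprinted genes, 14 were tested in NPCs and 36 in organoids. In NPCs TFPI2, a serine protease inhibitor, was higher with both hairpins (log2 fold changes 1.76 and 2.44, adjusted p = 3.4e-09 and 2.74e-11) and CPA4, a carboxypeptidase, was lower (-2.44 and -1.92, adjusted p = 3.46e-12 and 3.23e-11). In organoids SLC22A3, a cation transporter (2.40 and 2.82), GLIS3, a zinc finger transcription factor (2.06 and 2.41), and LPAR6, a lysophosphatidic acid receptor (1.06 and 1.38), were higher with both, and the noncoding RNA PEG13 was lower (-1.84 and -2.02). The counts were 3 higher and 2 lower with sh1 and 9 higher and 5 lower with sh4 in organoids, of 36 tested, with medians of 0.19 and -0.065. With sh1 both shares lie below those of all tested genes, 12.1% higher and 7.92% lower. With sh4 the higher share lies above the 20% of all tested genes and the lower share below the 15.5%. These differences in share were not tested. DIO3, a thyroid hormone deiodinase at the far end of the 14q cluster, had log2 fold changes of 0.95 with sh1 and 2.99 with sh4 in organoids, the second called (adjusted p = 2.14e-06), and of -1.54 and -0.26 in NPCs, the first called (adjusted p = 7.98e-08).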

How the data were processed

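The authors deposited gene tables of estimated counts: values whole within 1e-9 made up 82.4% for NPCs and 91.0% for organoids, and all were rounded before testing. Polyadenylated RNA had been sequenced, and STAR, featureCounts and GRCh38.p13 were used, per the submitters' processing notes; versions, strand setting and treatment of multiply mapped reads are not given in the sources used here. Groups were taken from the sample titles. Gene positions come from GENCODE 29 (GRCh38) and promoter windows from RefSeq (GRCh38.p14).

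Counts were tested with edgeR 4.0.16 in R 4.3.3 (glmQLFit, glmQLFTest), with TMM scaling, filterByExpr at a minimum count of 10, the 3 groups of a system in 1 fit, and Benjamini-Hochberg adjustment over all genes tested. CPM uses TMM-scaled library sizes; in NPCs it is relative to the genes listed in that table, so levels are not compared between systems. Standard errors were computed as the log2 fold change over the square root of F, and intervals are 95%. Differences between systems were tested by a contrast in 1 fit of all 6 groups. The fits were tested on simulated data. No pair of libraries agreed within sampling noise.

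Members with a call in a system get full values there, the others short ones; from each further list up to 4 genes called with both hairpins, by smallest adjusted p, are named. KCNQ1, DIO3 and the IGF axis genes IGF1 and IGFBP7 were named after their values were seen. The members and lists were chosen with earlier results of these data known. Alternatives were DESeq2 1.42.0, its size factors, library size alone, no filter, 2 groups only, the replicate number as a block, no fold threshold, and each library left out.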

Additional observations from a re-analysis of the deposited data

Results flagged for a closer look

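The hairpin effects on several imprinted genes differed between the systems by the edgeR contrast of NPC effect minus organoid effect. With sh1 the log2 differences were -5.23 for DLK1, -3.61 for RTL1, -3.13 for IGF2, -1.36 for CDKN1C and -1.12 for KDM2A, all downward. Upward with sh1 were 4.59 for PHLDA2, 3.20 for MKRN3, 2.10 for SNURF, 1.47 for MAGEL2 and 1.27 for SNRPN. With sh4 the downward differences were -6.09 for DLK1, -4.31 for RTL1, -3.17 for CDKN1C, -1.66 for IGF2 and -1.14 for PLAGL1. Upward with sh4 were 4.41 for NNAT, 3.76 for PHLDA2, 2.41 for SNURF, 2.18 for MKRN3, 2.02 for SNRPN, 1.70 for MAGEL2, 1.18 for INPP5F and 1.15 for GRB10. The ratio of SNURF to SNRPN also differed between the tables. KDM2A was called lower with sh1 in NPCs, was at -0.97 with sh4 there, and was not called in organoids, where marker sums of mesenchyme, endoderm and choroid plexus differed between the groups; their part in these differences was not tested.

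Single libraries stood far from the rest of their group in 3 of 75 groups of 5 NPC libraries, where chance gives about 1 in 20. PHLDA2 in NPC sh1 replicate 2 was lowest at 3.18 CPM, with the others at 4.31 to 4.76 CPM. DLK1 in NPC sh4 replicate 5 was highest at 39.0 CPM, with the others at 29.9 to 31.6 CPM. RTL1 in NPC sh1 replicate 3 was highest at 2.24 CPM, with the others at 0.922 to 1.26 CPM; without it, RTL1 was called lower in sh1 than in sh4 NPCs, at -1.05.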

How the results depend on the processing

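Of 74 calls of imprinted genes in the 8 comparisons, 67 held under all alternatives run and with each library left out; the 7 lost under at least 1 are named in the report or were the SNURF call in sh1 organoids, also lost with no filter (-1.25). No direction reversed. Dropping the fold threshold gave more calls among members, of 24 in NPCs and 32 in organoids, and among all genes. Higher and lower members in NPCs were 13 and 10 with sh1 (50.1% and 49.2% of all genes), 13 and 7 with sh4 (44% and 44.1%), 10 and 6 with both (42.5% and 43.1%), and 3 and 10 between the hairpins (13.1% and 14.5%). In organoids they were 10 and 10 with sh1 (25.1% and 21.6%), 12 and 15 with sh4 (34.5% and 33.4%), 8 and 9 with both (20.7% and 18%), and 12 and 11 between the hairpins (25.1% and 24.8%). Members higher in sh1 than in sh4 organoids numbered 4 with library size alone, 1 with the 2 groups only, and 1 to 3 with a library left out. KDM2A in NPCs ranged from -1.06 to -0.99 with sh1 and from -1.01 to -0.94 with sh4 when a library was left out, and was -1.11 with sh4 under library size alone; its sh4 difference between systems ranged from -1.01 to -0.89. The cause of these shifts was not tested. Replicate numbers were not taken to pair the libraries, since the labels do not say what a number marks. In NPCs deviations of same-numbered libraries correlated at -0.0995 to 0.393. Of these 15 pairs 9 were over 0.1, beside 11 of 60 pairs of unlike number, with medians of 0.124 and -0.0263. In organoids same-numbered pairs correlated at -0.156 to 0.0352 (0 of 9 over 0.1). Of the libraries, 6 of 15 in NPCs and 1 of 9 in organoids correlated best with their own number. Same-numbered NPC pairs thus correlated higher than the others by the median, and whether their number marks a shared origin is not known. With the replicate block, members higher in sh1 than in sh4 organoids numbered 1, without MKRN3. At these depths low members such as SNURF in organoids are among the least precise.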
